A study of Homo sapiens with 14 samples.

Results

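Binding of the NF-κB subunits p50, p52, RelA and RelB was examined at 8 receptor genes of the TNF receptor family and at the ligand gene CD70 in L1236, a Hodgkin lymphoma cell line. The 9 genes were CD40 (ENSG00000101017), TNFRSF8 (ENSG00000120949), TNFRSF9 (ENSG00000049249), TNFRSF1B (ENSG00000028137), LTBR (ENSG00000111321), CD27 (ENSG00000139193), TNFRSF4 (ENSG00000186827), TNFRSF18 (ENSG00000186891) and CD70 (ENSG00000125726). A ChIP-seq region was taken as a member when the authors' annotation listed one of these genes as its closest gene or its closest transcription start site (TSS). This gave 21 of the 14865 regions that were called for at least 1 subunit, and 7 of the 9 genes had a region.

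The cells were of 1 established line, and the labels list no treatment. Each subunit was immunoprecipitated in 2 biological replicates, and 6 libraries of input DNA were sequenced without an antibody. The p52 replicates were made with different antibodies, a mouse monoclonal and a rabbit polyclonal one, so their spread includes that change, whereas the other subunits kept 1 antibody. Calls, fold enrichments over input and read numbers come from merged replicates. The replicates appear separately only as a pair of signal values per called region, whose columns do not name the replicate. Summed over all regions there were 1810792 p52 reads, 1654137 p50 reads, 470788 RelB reads and 315151 RelA reads, so RelA and RelB values rest on fewer reads. Regions are not replicates of a condition, and merged values carry no spread between experiments. No test was made, and the figures given for all regions serve as a description. RNA was not measured in these libraries, so the cell line label could not be checked against marker genes.

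NF-κB acts as dimers of its subunits on κB sites in promoters and enhancers. The canonical pathway releases dimers such as p50-RelA, and the non-canonical pathway processes p100 to p52 and delivers p52-RelB. Receptors of this family stand on both sides of the system. CD40, the lymphotoxin β receptor LTBR, CD27, CD30 (encoded by TNFRSF8), 4-1BB (TNFRSF9), OX40 (TNFRSF4), GITR (TNFRSF18) and TNF receptor 2 (TNFRSF1B) signal to NF-κB through TRAF adaptor proteins, and several of their genes are known NF-κB targets. CD30 is the surface marker by which Hodgkin lymphoma cells are recognized, and CD70 is the ligand of CD27.

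The sequence before the TNFRSF9 start is shown because all 4 subunits were called there. It is RefSeq's 250 bases upstream of the TNFRSF9 start in GRCh38.p14, on the minus strand at chr1:7940840-7941089, with matches to the κB consensus in capitals:
TNFRSF9: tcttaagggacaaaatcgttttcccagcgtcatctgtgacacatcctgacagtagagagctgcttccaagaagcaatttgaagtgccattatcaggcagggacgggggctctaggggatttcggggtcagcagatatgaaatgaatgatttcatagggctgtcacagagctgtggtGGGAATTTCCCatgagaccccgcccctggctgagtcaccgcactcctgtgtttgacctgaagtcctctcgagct
The consensus was searched on both strands as 3 G, a purine, any 2 bases, 2 pyrimidines and 2 C. The capital run of 11 bases lies 74 to 64 bases before the start and holds 2 overlapping matches, 1 on each strand. RefSeq windows reaching from 250 bases before to 50 after the start were at hand for 6 of the 9 genes. TNFRSF9 was the 1 window of the 6 with a match, and TNFRSF8, TNFRSF1B, LTBR, CD27 and TNFRSF18 had none in these letters. Over all 35116 windows of this length, 11.3% held a match. The windows of CD40, CD70 and TNFRSF4 were not analysed here.

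For CD70 the study's ChIP-qPCR primer pair is shown because it sits in the region with the highest p50 and p52 fold enrichment of all members. The sense primer is listed at position -44 and the reverse primer at position 46, counted from the TSS as 1:
CD70 sense: ctcgccaattgctcaagtcc
CD70 reverse: cgtctacttgcttcaacctg
Both listed positions fall inside that region on the hg18 build, and the sense primer position is 6 bp from the p50 summit and 7 bp from the p52 summit.

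Most of the 21 regions were called for p50, p52 or both. p50 was called in 17 regions (81.0%, against 73.8% of all regions) and p52 in 18 (85.7%, against 73.3%). RelB was called in 11 (52.4%, against 26.8%), and RelA in 3 (14.3%, against 3.31%). The p50 and p52 shares were near the background, whereas those of RelB and RelA stood above it in this small set. Leaving out the 10 regions of TNFRSF8 gave 9 p50, 9 p52, 6 RelB and 2 RelA calls in 11 regions. The RelA count moved with the threshold, since requiring a fold enrichment of at least 5 left 2 calls and an irreproducible discovery rate (IDR, the expected share of calls that do not repeat between replicates) below 0.001 left 0. At that fold enrichment 2.34% of all regions were still called for RelA, and below that IDR 1.5% were. The 7 member regions that kept a RelB call below that IDR made up 33.3%, against 13.5% of all regions.

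The commonest combination was p50, p52 and RelB without RelA, found in 8 regions (38.1%, against 17.1% of all regions). All 4 subunits were called in 2 regions (9.52%, against 2.35%), at the TNFRSF9 start and far upstream of CD70. p50 and p52 were the only calls in 3 regions (14.3%), although this was the commonest combination in the whole table, at 31.8% of regions. p50 alone was called in 3 regions (14.3%, against 21.2%) and p52 alone in another 3 (14.3%, against 19.8%). Every RelB call of the members lay in a region called for p52, and 10 of the 11 also had a p50 call. Among all RelB regions 80.3% were also called for p52 and 76.8% for p50.

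**Figure D1:**
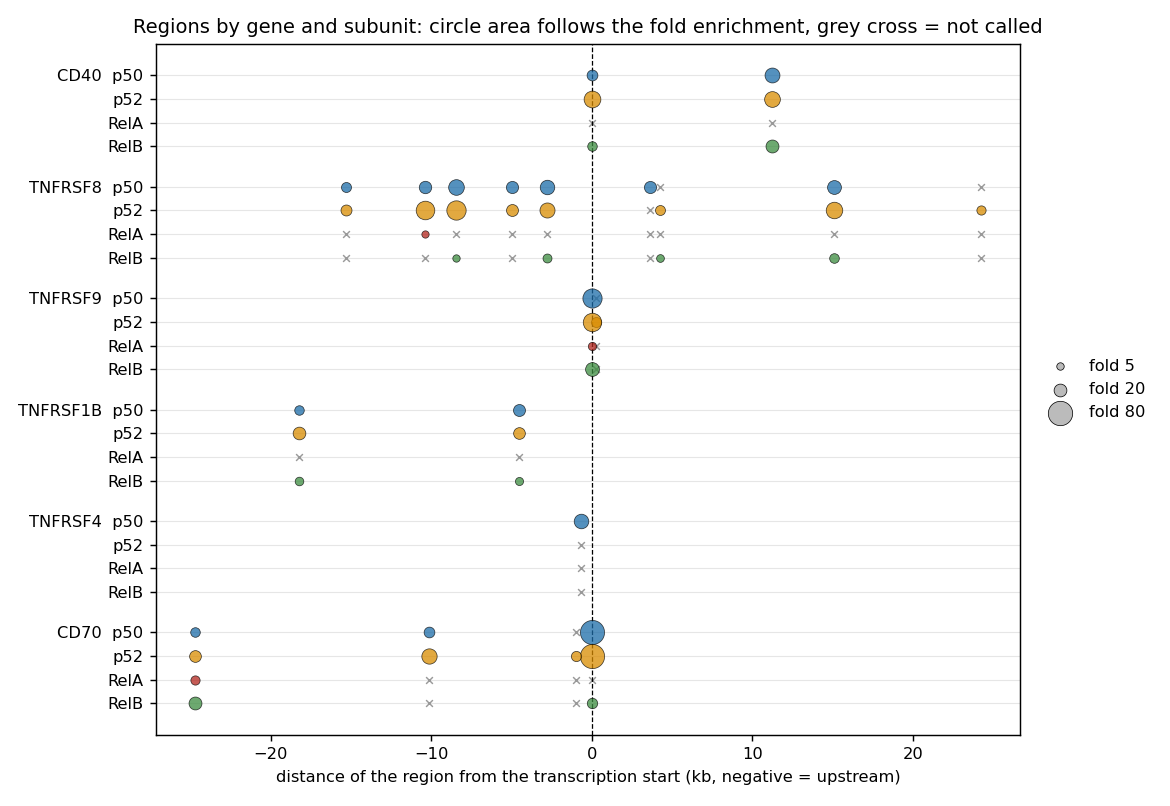
Position of each region (its nearest edge, in kb from the TSS of the closest-TSS gene) for the 6 genes listed as closest TSS, with 1 line per subunit. Circle area follows the merged fold enrichment and grey crosses mark subunits not called. The largest circles are p50 and p52 at the CD70 start, TNFRSF8 has 9 regions on both sides of its start but none over it, and RelA appears in 3 places.

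CD40, the receptor through which T cells activate B cells, had 2 regions, both called for p50, p52 and RelB. The first, on chromosome 20 from 44179615 to 44181710, lay over the TSS. It had a p50 fold enrichment of 13.5, a p52 value of 36.3 and a RelB value of 10.0, and held 402 p50, 482 p52, 48 RelA and 99 RelB reads. The listed summits of the subunits did not fall at the same place in this region. A single summit is listed per subunit and region, so further peaks within its 2096 bp would not show. The p50 and p52 fold enrichments may therefore belong to different places. The p50 summit was 75 bp upstream of the start, while the p52 and RelB summits were 957 and 981 bp downstream of it. The p50 and p52 summits were thus 1032 bp apart, and only 123 of the 7643 regions called for both (1.61%) had summits over 900 bp apart. The p50 fold enrichment was above that of 32.5% of all p50 regions, although the replicate signal values stood at 64.4 and 67.5%. Its RelB call was uneven between replicates, at the 4.3 and 75.6 percentiles of all RelB regions.

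The second CD40 region, from 44191547 to 44193343, began 11234 bp downstream of the start and touched the gene as annotated. Its summits lay 11709 to 11726 bp downstream of the start. Whether the gene reaches that far was not examined. Here the summits lay close together, with 12 bp between p50 and p52 and 5 bp between p52 and RelB. p50 reached a fold enrichment of 28.3, p52 31.8 and RelB 20.7. RelB was above 91.8% of all RelB regions, and its replicates at 88.1 and 97.0% were alike. RelB took 15.3% of the reads of the 4 subunits (exact 95% interval 13.0 to 17.8, 137 of 897 reads), against 9.6% at the start (7.87 to 11.6, 99 of 1031). Exact intervals here and below cover counting error only. The 2 intervals did not overlap, but they leave out the spread between replicates, which was wide for RelB at the start, and the pair was set side by side after its values were seen.

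**Figure D2:**
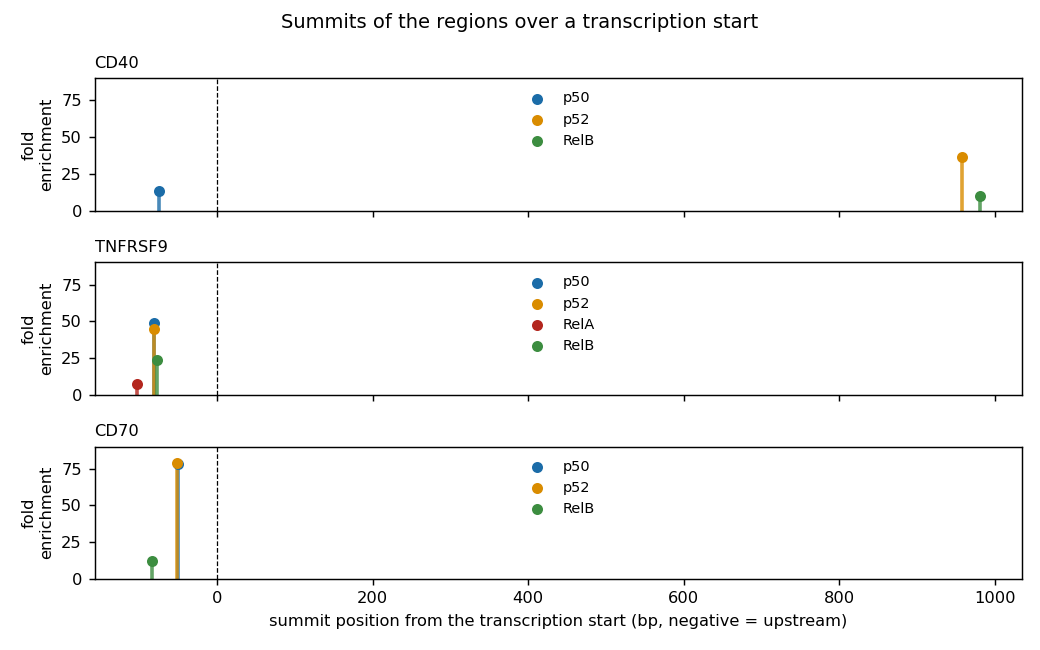
Summit position in bp from the TSS (horizontal) and merged fold enrichment (vertical) of each called subunit in the 3 regions that lie over the start of a listed gene. At TNFRSF9 and CD70 the summits cluster upstream of the start, and at CD40 the p50 summit is 1032 bp away from the p52 summit.

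TNFRSF8, which encodes CD30, had the most regions of the 9 genes. It had 10, a number reached by 101 of the 8450 genes with a region (1.2%), without allowance for the length of sequence nearest to each gene. None lay over its start at position 12046021 of chromosome 1. Upstream there were 5 regions, beginning 15317, 10406, 8476, 4991 and 2782 bp away, and 4 lay inside the gene, from 3608 to 24244 bp downstream of the start. The tenth, 3699 bp beyond the gene, has TNFRSF1B as its closest TSS. p52 was called in 9 of the 10 regions, p50 in 8, RelB in 5 and RelA in 1.

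The highest p52 values at TNFRSF8 were upstream. The region 8476 bp upstream (12036604 to 12037545) had a p52 fold enrichment of 49.4, above 94.4% of all p52 regions, with the replicates at 94.9 and 93.6%. Its p50 fold enrichment was 31.5 and its RelB value, 4.93, was among the lowest, above only 8.9% of RelB regions. The neighbouring region 10406 bp upstream (12034429 to 12035615) was the 1 TNFRSF8 region called for RelA. It had a p52 fold enrichment of 45.6, a p50 value of 18.9 and a RelA value of 4.76, and RelB was not called. The combination of p50, p52 and RelA without RelB occurred in 23 regions overall (0.155%). This RelA call rested on replicates that differed widely, at the 0.6 and 70.7 percentiles of all RelA regions. The RelA summit was 58 bp from the p50 summit, and the p50 and p52 summits were 181 bp apart.

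RelB was called at 5 of the 10 TNFRSF8 regions. Its highest fold enrichment there was 10.3, inside the gene 15115 bp downstream of the start (12061136 to 12062676). That region had 228 p50, 280 p52, 45 RelA and 90 RelB reads. Its RelB replicates stood at 15.3 and 74.7%, so the height is poorly fixed. The other 4 RelB values were between 4.93 and 8.54. In this inner region the RelB summit was 363 bp from that of p50, and 2782 bp upstream of the start it was 206 bp away, whereas 8476 bp upstream the distance was 47 bp. The region nearest to the start, 2782 bp upstream (12041794 to 12043239), had a p50 fold enrichment of 26.6, a p52 value of 28.9 and a RelB value of 8.54. The regions 15317 and 4991 bp upstream and those 3608, 4278 and 24244 bp downstream were lower, with a p50 fold enrichment up to 18.0 and a p52 value up to 17.1.

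TNFRSF9 encodes 4-1BB, a costimulatory receptor. Its region over the start, on chromosome 1 from 7923248 to 7924293, was called for all 4 subunits. p50 and p52 had similar fold enrichments, 48.9 and 44.9, followed by RelB with 23.9 and RelA with 6.99. These values were above 97.1% of p50, 92.4% of p52, 94.8% of RelB and 62.6% of RelA regions. The replicates agreed within a few points for p50 (97.7 and 98.1%) and p52 (94.5 and 93.2%), and less for RelB (76.6 and 94.0%) and RelA (59.6 and 28.0%). The p50 and p52 summits fell on the same base, 81 bp upstream of the start, with RelB at 77 and RelA at 103 bp upstream. The sequence shown above has its κB run 74 to 64 bases before the start that RefSeq gives in the later build. The builds were not aligned to each other here, so the 2 positions are set side by side only. A second, weak region (7922781 to 7923240) lay just downstream, was called for p52 alone with a fold enrichment of 11.3, and held 40 p52 reads.

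TNFRSF1B, encoding TNF receptor 2, had no region over its start at position 12149647 of chromosome 1. Its 2 regions lay 18257 and 4513 bp upstream, and both were called for p50, p52 and RelB. The nearer one (12144075 to 12145134) had a p50 value of 17.4, a p52 value of 16.4 and a RelB value of 6.53. The farther one (12130550 to 12131390), between TNFRSF8 and TNFRSF1B, had p50 at 10.0, p52 at 19.7 and RelB at 7.67. All 3 subunits were thus modest here, with percentiles from 9.6 to 58.4. The nearer region held 33.0 RelA reads per kb without a RelA call, just below the 35.4 reads per kb of the least covered member that was called for RelA, and the median of all regions not called for RelA was 15.3. TNFRSF8 and TNFRSF1B are neighbours, and together their regions made a run of 11 in 115 kb. Of all regions, 1.03% opened a stretch of that length with as many, and the median was 2.

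CD27 and TNFRSF4 had 1 region each, both called for p50 alone. The TNFRSF4 region (chromosome 1 from 1140057 to 1140867) lay 646 bp upstream of the start of this gene, which encodes OX40, with a p50 fold enrichment of 26.9, above 78.0% of all p50 regions and with replicates at 66.6 and 76.8%. It held 109 p50 and 29 p52 reads, and its 35.8 p52 reads per kb were below the median of 43.9 for regions not called for p52. The p50 share of p50 and p52 reads was 79.0% (71.2 to 85.5), the highest of the 21 members, and 2.35% of all regions had a higher one. The CD27 region (chromosome 12 from 6430284 to 6432100) touched CD27 but lay over the start of a different gene, so it cannot be assigned to CD27 with confidence. It had a p50 fold enrichment of 14.8, and its p50 share was 62.7% (57.3 to 67.9). With 126 p52 reads, or 69.3 per kb, it was not low in p52 coverage although p52 was not called.

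LTBR and TNFRSF18 were not listed as closest gene or closest TSS of any region. LTBR encodes the lymphotoxin β receptor, a strong activator of the non-canonical pathway, and TNFRSF18 encodes GITR. RefSeq lists TNFRSF18 next to TNFRSF4 and LTBR next to CD27, and these neighbours had 1 region each. The CD27 region touched CD27 itself, and the TNFRSF4 region lay 646 bp upstream of the TNFRSF4 start. By the authors' annotation both regions were thus closer to other genes than to LTBR or TNFRSF18. A region near LTBR or TNFRSF18 but closer to a gene outside the list would not have been a member. The table holds only called regions, and weaker binding at these 2 genes was not detectable from it.

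CD70 had the highest p50 and p52 fold enrichments of the members, while the highest RelB value was at the TNFRSF9 start. The CD70 regions differed in subunit makeup. The region over its start, on chromosome 19 from 6541369 to 6542859, had a fold enrichment of 78.4 for p50 and 78.9 for p52, above 99.9% of p50 and 99.5% of p52 regions. The replicates put p50 at 99.8 and 87.5% and p52 at 98.5 and 99.1%. RelB was called with a value of 12.4, above 70.4% of RelB regions, and RelA was not called. The summits of p50 and p52 were 1 bp apart, 50 and 51 bp upstream of the start, and that of RelB was 84 bp upstream. The region held 375 p50, 440 p52, 42 RelA and 70 RelB reads.

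The region 24721 bp upstream of the CD70 start (6566884 to 6567438) had RelB in first place by fold enrichment instead. By reads p52 led there, with 64 against 52 for RelB, and the p52 pileup at the summit was also higher, 48 against 41. All 4 subunits were called, with RelB highest at a fold enrichment of 20.6, then p52 at 16.5, p50 at 10.1 and RelA at 9.26. RelB was above 91.7% of RelB regions and p50 above only 10.5% of p50 regions. In both replicates RelB was high (88.0 and 80.9%) and p50 low (0.7 and 26.4%), whereas for RelA, with 88.0% by the merged value, they stood at 54.3 and 40.7%. The 4 summits lay within 48 bp of each other. RelB took 29.9% of the reads of the 4 subunits here (23.2 to 37.3, 52 of 174), against 7.55% at the start (5.93 to 9.44, 70 of 927). RelA took 12.6% (8.1 to 18.5) against 4.53% (3.28 to 6.08). Neither pair of intervals overlapped, though this contrast too was chosen after its values were seen. The median over all regions was 9.23% for RelB and 6.76% for RelA. RelA shares did not track RelA calls, since members not called for RelA had from 4.53% to 13.4%. The called regions at the TNFRSF9 start and 10406 bp upstream of TNFRSF8 had 5.56% and 8.39%. Counts are not corrected for input, and the upstream region was narrower, 555 against 1491 bp.

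The other 2 CD70 regions held neither RelA nor RelB calls. The region 10124 bp upstream (6552287 to 6553102) had a p52 fold enrichment of 30.0 and a p50 value of 13.4. It leaned to p52, with a p50 share of 31.7% (24.6 to 39.5). The region 1012 bp upstream (6543175 to 6543874) was called for p52 alone, with a value of 11.9 and 50 p52 reads.

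**Figure D3:**
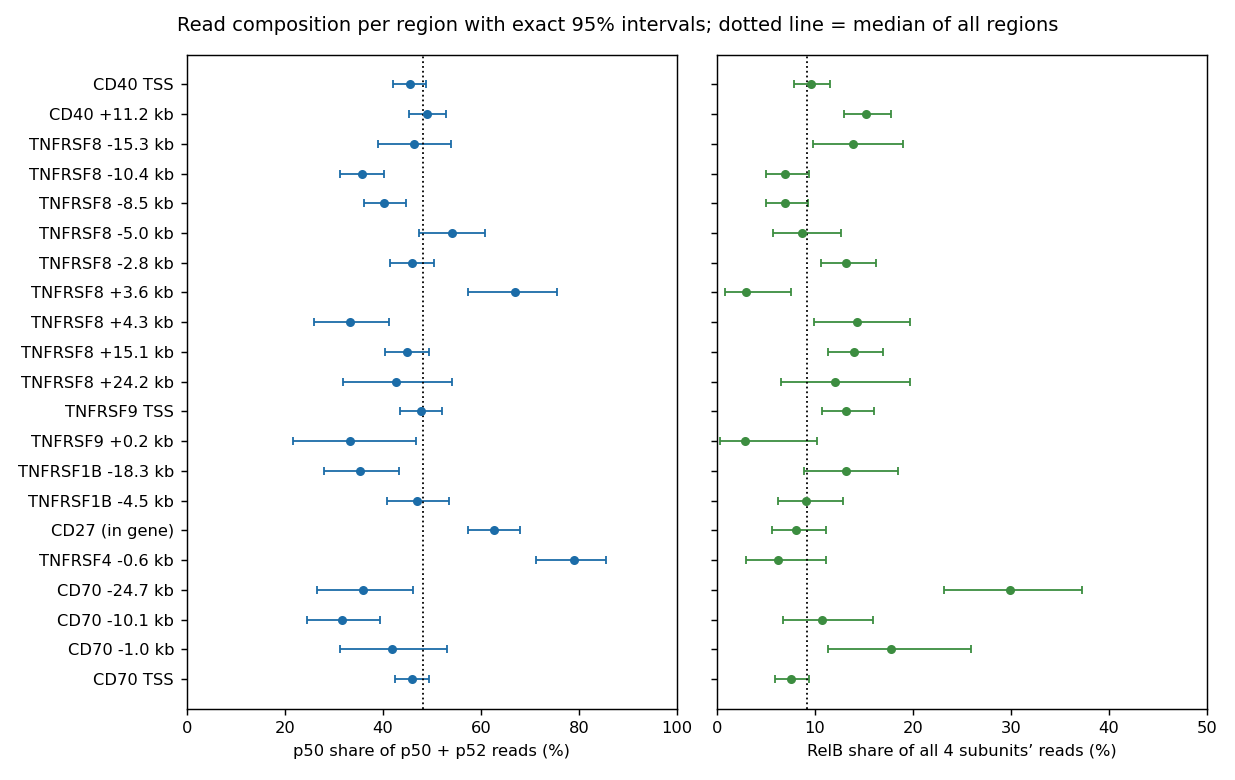
Share of reads in each of the 21 regions, labelled by gene and distance from the start: p50 among p50 and p52 reads (left) and RelB among the reads of all 4 subunits (right), in percent. Points are single merged values, bars are exact 95% intervals and dotted lines are the medians of all regions, 48.2% and 9.23%. TNFRSF4 stands highest for p50 and the region 24.7 kb upstream of CD70 stands highest for RelB.

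Across the members p50 and p52 reads were close to balance. The median p50 share was 45.5%, and that of all regions was 48.2%. The interval lay wholly above that figure in 3 regions, those of TNFRSF4 and CD27 and the TNFRSF8 region 3608 bp downstream of the start, where p50 alone was called and its share was 67.0% (57.4 to 75.6). It lay wholly below in 7 regions. These are 14.3% and 33.3% of the members, and of all regions 35.6% lay wholly above and 33.3% wholly below. In the 14 regions called for both, the summits of p50 and p52 were a median of 23.5 bp apart, and 12 of the 14 had them within 50 bp. The exceptions were the CD40 start and the TNFRSF8 region 10406 bp upstream. The median of all 7643 such regions was 11 bp, and their share within 50 bp is not given here.

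Measured against all called regions, the members were not uniformly strong. Their median percentile was 68.3 for p52, 62.6 for RelA, 56.7 for RelB and 54.6 for p50. The order of the subunits was not stable, since p50 stood above p52 by pileup (65.5 and 63.7), and RelB above p52 without the TNFRSF8 regions (81.0 and 79.6). At or above the 75 percentile stood 9 of 18 p52 values, 6 of 17 p50 values, 3 of 11 RelB values and 1 of 3 RelA values. The 3 high RelB values were those of the TNFRSF9 start, the second CD40 region and the region far upstream of CD70. Replicates were a median of 5.2 percentile points apart for p50 and 8.45 for p52, but 18.8 for RelB and 31.6 for RelA, so the order of members by RelA is not resolved.

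**Figure D4:**
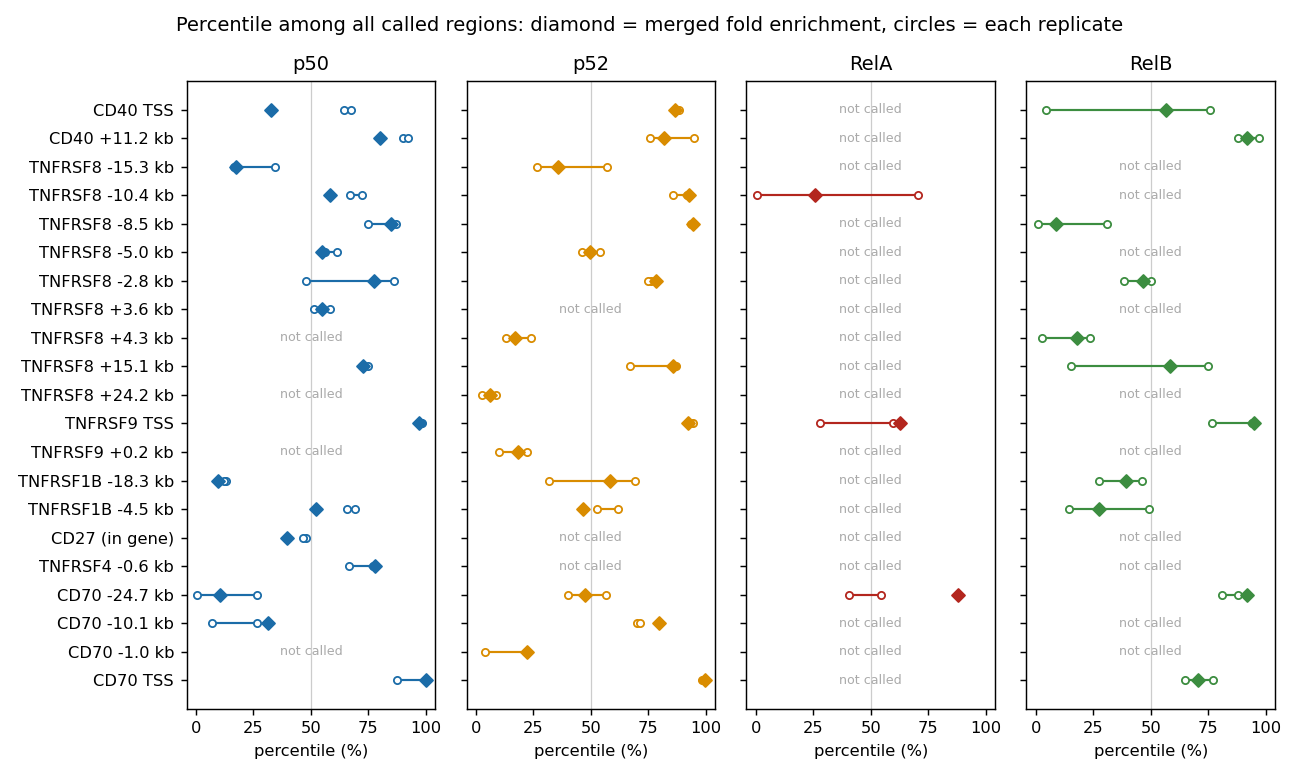
Percentile of each region among all regions called for the same subunit, in percent, with 1 panel per subunit and 1 line per region. Diamonds are the merged fold enrichment and open circles joined by a line are the replicate signal values. The circles of p50 and p52 mostly lie close together, and those of RelB and RelA spread widely, by up to 71.3 and 70.1 points.

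By gene, RelB was called at CD40, TNFRSF8, TNFRSF9, TNFRSF1B and CD70, which were 5 of the 7 genes with a region (all genes with a region, 38.2%). These 5 were also the ones with more than 1 region, and among all genes with at least 2 regions 57.8% had a RelB call. RelA was called at TNFRSF8, TNFRSF9 and CD70 (all genes with a region 5.46%, those with at least 2 regions 8.88%). A region over the gene's own start was found at CD40, TNFRSF9 and CD70, 3 of the 9 genes, and all 3 carried p50, p52 and RelB. The share of all genes with such a region is not given here. Over starts in general, p50 was called in 96.1% of 2447 regions, p52 in 53.1%, RelB in 25.9% and RelA in 4.74%. That class takes the start of any gene, so it also holds the CD27 region, where p50 was the only subunit found. All 4 members of the class had p50, but only 3 of them had p52 and RelB, and 1 had RelA.

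Coverage without a call differed between subunits. In the 18 members not called for RelA it ran from 13.0 to 33.0 RelA reads per kb, below the 35.4 to 39.6 of the 3 called ones. For RelB the ranges overlapped, with 4.35 to 39.2 reads per kb in the 10 members not called and 24.0 to 93.7 in the 11 called. The region 15317 bp upstream of TNFRSF8 was the uncalled one with 39.2 RelB reads per kb. The p52 ranges overlapped too, with 35.8 to 72.7 reads per kb in the 3 members not called and 50.1 to 330 in the 18 called. The highest uncalled p52 value was that of the TNFRSF8 region 3608 bp downstream, so a call for p50 alone does not show that p52 was absent.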

How the data were processed

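ChIP-seq of 4 NF-κB subunits in L1236 cells (2 replicates each, 6 inputs) was taken from the authors' table of regions on hg18. Per the labels and methods, the authors aligned reads with Bowtie, kept unique reads, removed duplicates with SAMtools, drew 10000000 reads per library, called peaks with MACS per replicate and on merged replicates, and kept calls with IDR and FDR below 0.05. Deposited units were read counts per region, fold enrichment (a ratio over input), pileup signal at the summit, IDR as a fraction, the MACS FDR as a q-value, and replicate signal values, a score whose scale is not given in the sources used here. Whether reads were counted before or after the draw is not given in the sources used here. Random sampling discards reads and equalizes depth only among libraries that hold enough of them. Both RelB libraries are listed in the study with fewer than 10000000 mapped reads, so they could not reach that size. Joining peaks into regions can merge neighbouring sites. Genes come from the authors' Ensembl version 54 annotation.

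Computed here, with Python 3 libraries, were counts of calls, percentiles (percent of called regions with a lower value), exact Clopper-Pearson 95% intervals, summit distances, TSS positions from the deposited distances, and motif matches. The percentiles, intervals, TSS positions and motif search were first tested on simulated data. The 9 genes and all lists were chosen with earlier results of these data known. Within a gene, regions over the TSS, those called for RelA and the highest per subunit were named, and others were given as ranges; regions carrying a contrast in the text were chosen after their values were seen. Of 37 further symbols of the receptor and ligand families listed for comparison, 1 (LTA) could be paired with an identifier. The alternatives tried are given in the closing section.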

Additional observations from a re-analysis of the deposited data

How the results depend on the processing

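Of 77 alternatives to the results that answer a comparison, 56 left the value within 1.5 times or within its spread and 21 moved it. IDR below 0.001 (chosen after seeing the data) left RelA at 0% of members and 0 genes, RelB at 33.3% and the median summit distance at 13 bp, also 13 bp within 10 kb of the TSS. FDR below 1e-05 and fold enrichment of at least 5 each left RelA at 9.52%, against 2.94% and 2.34% of all regions. Without the TNFRSF8 regions (also added) 11 regions remained, and median percentiles were 52.2 for p50, 79.6 for p52, 75.3 for RelA and 81.0 for RelB. By pileup the median percentile was 65.5 for p50 and 32.7 for RelA. With 1 replicate signal value alone, p50 medians ranged from 65.6 to 66.6, p52 medians from 61.9 to 70.2, RelA medians from 40.7 to 54.3 and RelB medians from 38.5 to 74.7, so the order of the subunits changed with the measure. The median p50 share was 43.9% by pileup and 47.7% with reads divided by each subunit's total. Within 5 kb of a start 6 genes had a region, and the looser motif (any 5 bases between 3 G and 2 C) matched 6 windows, as it did 58.7% of all. IDR below 0.01 changed nothing, since every deposited call already met it, and no member lay beyond 100 kb of a start. The alternatives with these 2 limits could not move a value, yet they are counted among the 56. For the RelB percentile the spread between replicates was 25.6 points, so medians from 38.5 to 81.0 also counted as unmoved. The cause of the other changes was not tested. No paired analysis was possible because the results come from no test and the replicate signal columns carry no replicate number. The low read numbers of RelA and RelB in the regions limit what can be said of members without those calls.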

Other observations

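The lymphotoxin α gene LTA, the 1 ligand of the comparison list paired with an identifier, had 3 regions, all called for p50 and p52, 2 of them for RelB and 0 for RelA. The region over its listed start (chromosome 6 from 31646555 to 31651829) had a p50 fold enrichment of 46.4, with p52 at 25.0 and RelB at 24.9. Its summits were not examined, so in this wide region the values need not belong to the LTA start.

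On either side of the 4 CD70 regions there was a gap. The next region below them on chromosome 19 was 33174 bp away and the next above 45091 bp away, and both were called for p50, p52 and RelB without RelA.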
